A study of Sus scrofa with 48 samples.

Results

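Transcript levels in subcutaneous adipose tissue (SCAT) were compared between pigs selected for low and for high residual feed intake (RFI) when both lines ate the low fat, starch-rich LF diet. The differences rested on the 24 arrays whose titles carried LF_RFIneg (12 low RFI pigs) or LF_RFIpl (12 high RFI pigs). Their standard errors and p-values came from a fit to all 48 arrays in the series. RFI compares the intake of a pig with the intake that its maintenance and production would require, and low RFI pigs are the more efficient ones. All 24 pigs were Large White barrows of 132 days of age with free access to the LF diet, which was also low in fiber. The other 24 pigs belonged to the same lines and ate a diet rich in fat and fiber (HF diet). Low RFI and high RFI were each represented by 1 selection line, so that RFI and anything else that differs between the lines cannot be told apart.

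SCAT stores energy as triglyceride inside lipid droplets of adipocytes, from which lipases release fatty acids. On a starch-rich diet most of the stored fatty acids are made from glucose by de novo lipogenesis. Adipocytes share the tissue with fibroblasts, vessel cells, macrophages and lymphocytes, and the arrays read all of them together. In such bulk tissue, fewer cells of a type and less RNA per cell cannot be told apart.

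A level is the log2 of a probe's background-subtracted brightness minus the median of its array, so that 0 is the level of the median probe. Probes that rose well above background on 9 or more arrays of any group of 12 were tested, which gave 44356 probes and 11116 genes, each gene read by its brightest probe. Differences are low RFI minus high RFI, on the log2 scale, with their standard error (SE) from limma. A differentially-expressed probe (DEP) or gene (DEG) passed the cut-offs of the study, namely 0.01 for the raw p, 1.1 for the fold change and 0.08 for the p adjusted after Benjamini-Hochberg.

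Between 69.3% and 78.6% of the probes were well above background on the low RFI arrays, and between 72.2% and 77.9% on the high RFI arrays. The array medians before centring were 8.29 ± 0.16 (log2, SD, n = 12) and 8.37 ± 0.22. Each of the 6 slides held 2 arrays of each LF group, and each of the 2 scan dates held 6. Positions on the slide were not balanced, since 4 of the 8 positions held both LF groups. The first principal component of the 24 arrays held 17.1% of the variance, and the lines overlapped on it (-58.9 to 40.4 in low RFI pigs, -69.0 to 78.4 in high RFI pigs). There were 3 arrays that stood apart in their cell type markers. Low RFI replicate 4 had a mean keratinocyte marker level of 0.62, against -2.88 to -1.99 on the other 23 arrays. Low RFI replicate 9 and high RFI replicate 11 had mean skeletal muscle marker levels of 1.002 and 1.499, against -1.21 to 0.04 on the others. The calls were recounted without these 3 arrays.

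**Figure D1:**
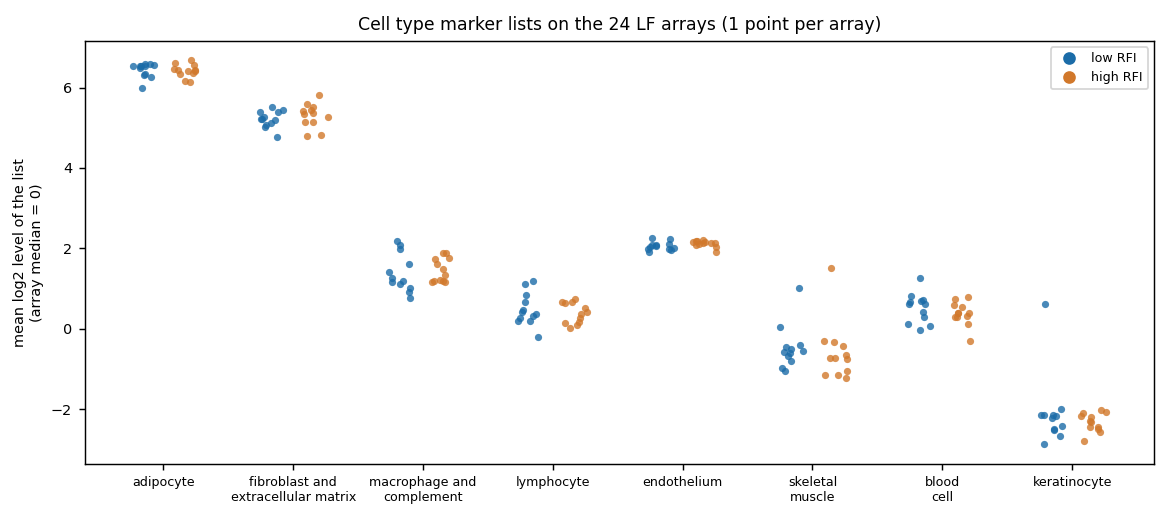
Mean log2 level of 8 cell type marker lists on each of the 24 LF arrays (y axis, array median set to 0), with low RFI pigs in blue and high RFI pigs in orange. The lines overlap in every list, 1 low RFI array stands out for keratinocyte markers at 0.62, and 1 array of each line stands out for skeletal muscle markers at 1.002 and 1.499.

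The 60-base sequences of 13 of the 15 probes called below and of A_72_P035606, a PON1 probe that was not called, are given first, as the scanner files list them, 5′ to 3′. They are shown because 7 of the 15 DEP had no gene symbol and because probes under the names PON1 and PON3 did not all move together. All letters are in lower case, as no base is singled out. The array files gave no genome position for any of them.
PON1 probe O12638: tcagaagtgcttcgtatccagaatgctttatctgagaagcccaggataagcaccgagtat
PON1 probe A_72_P035606: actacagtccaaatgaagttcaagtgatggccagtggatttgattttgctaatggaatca
PON3 probe A_72_P385478: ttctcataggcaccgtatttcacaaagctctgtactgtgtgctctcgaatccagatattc
PON3 probe A_72_P223547: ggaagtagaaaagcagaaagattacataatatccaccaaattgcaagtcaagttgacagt
PLIN2 probe A_72_P088596: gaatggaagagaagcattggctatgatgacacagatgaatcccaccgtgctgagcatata
WDHD1 probe A_72_P359418: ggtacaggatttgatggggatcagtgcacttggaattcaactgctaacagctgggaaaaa
SLCO2B1 probe O10918: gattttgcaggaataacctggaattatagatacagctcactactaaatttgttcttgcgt
probe A_72_P040016: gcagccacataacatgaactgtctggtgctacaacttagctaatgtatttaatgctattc
probe OTTSUST00000000508: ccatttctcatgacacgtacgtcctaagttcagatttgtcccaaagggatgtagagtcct
probe A_72_P143336: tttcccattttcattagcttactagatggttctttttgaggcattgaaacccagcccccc
probe A_72_P304024: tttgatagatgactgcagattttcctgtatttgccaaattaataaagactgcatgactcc
probe A_72_P087716: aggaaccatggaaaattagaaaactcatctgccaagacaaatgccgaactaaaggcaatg
probe A_72_P395863: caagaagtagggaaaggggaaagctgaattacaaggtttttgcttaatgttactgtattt
probe A_72_P236542: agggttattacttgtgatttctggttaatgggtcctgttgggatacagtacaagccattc

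Under the LF diet the probes called between the lines were those of paraoxonases, PLIN2, WDHD1 and SLCO2B1 and those of transcripts that the array does not name. Of 44356 probes, 15 were DEP (0.0338%), with 8 (0.018%) at a higher level in the low RFI line and 7 (0.0158%) at a lower one. A raw p under 0.05 was reached by 2820 probes (6.36%). The 15 DEP had 15 different sequences, 8 carried 1 of 5 gene symbols, and 5 were paraoxonase probes. At the gene level, 7 of 11116 genes were DEG (0.063%), 5 higher (0.045%) and 2 lower (0.018%) in low RFI pigs. The higher ones were PON1 (by its brighter probe), PON3, PLIN2, ARL2BP and HEATR4, and the lower ones WDHD1 and HELQ. The median difference over all genes was 0.01, and 31 genes differed by over 2-fold. For all 15 DEP the ranges of the lines overlapped. These counts depended on single arrays. Without low RFI replicate 4, 5 probes were DEP, all lower. Without low RFI replicate 9 there were 8, without high RFI replicate 11 there were 7, and without all 3 arrays there were 2, both lower, namely A_72_P040016 (limma adjusted p = 0.0702) and the WDHD1 probe A_72_P359418, while the other 13 DEP had limma adjusted p of 0.103 to 0.25. With array position as a block no probe was called (smallest adjusted p = 0.562 in limma). The 15 DEP had the same sign with that block and a larger SE, and the difference was larger in size for 7 and smaller for 8. It was 1.42 for PON3, -1.16 for WDHD1 and 1.08 for PLIN2, and it was 0.89 for A_72_P087716 and -0.86 for A_72_P040016. With the analysis of variance that the study's methods name, 3 probes and 0 genes were called (smallest adjusted p over genes = 0.0809, where limma gave 713 genes at a raw p under 0.05). When the 24 LF arrays alone were fitted, 6 probes were called. The WDHD1 probe A_72_P359418 and the PLIN2 probe A_72_P088596 were then not called among all probes (limma adjusted p = 0.126 for both).

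**Figure D2:**
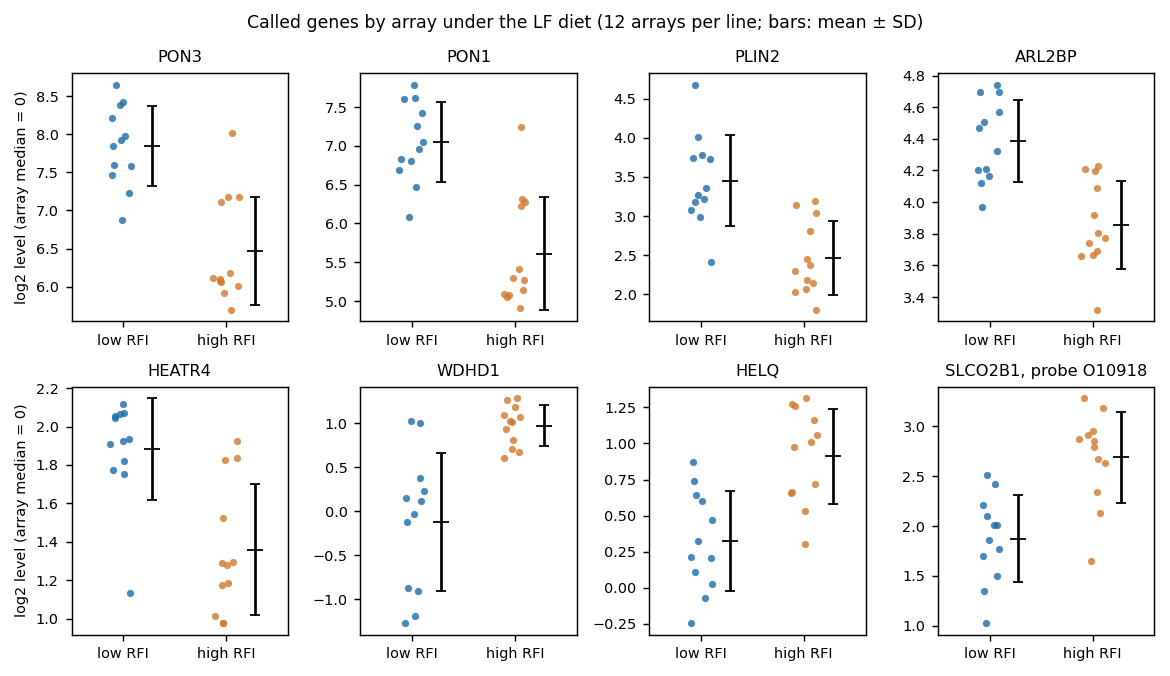
Log2 level (y axis, array median set to 0) of the 7 DEG and of the SLCO2B1 probe O10918 on each LF array, with 12 low RFI pigs in blue, 12 high RFI pigs in orange, and the mean and SD as bars. The lines overlap in every panel, and 4 high RFI pigs lie apart from the other high RFI pigs for both PON3 and PON1.

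Paraoxonases are esterases that hydrolyse lactones and oxidised lipids. PON1 and PON3 are best known as liver products carried by high density lipoprotein, and PON2 acts inside cells. The brightest PON3 probe, A_72_P385478, had levels of 6.87 to 8.65 in low RFI pigs (median 7.88) and 5.69 to 8.02 in high RFI pigs (median 6.11). All 12 low RFI pigs lay above the high RFI mean, and 4 lay above the highest high RFI pig. The difference was 1.38 (SE 0.28), a 2.60-fold higher level in low RFI pigs (limma adjusted p = 0.0394 over genes). All 4 PON3 probes were DEP, with differences between 1.38 and 1.44. The array names A_72_P385478 after PON1, but the accession it carries is that of PON3.

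Probe O12638 carries the name PON1 on the array without an accession. It had levels of 6.08 to 7.79 in low RFI pigs (median 7.003) and 4.91 to 7.24 in high RFI pigs (median 5.28). The difference was 1.44 (SE 0.29), 2.71-fold higher in low RFI pigs (limma adjusted p = 0.0394 over genes). The same 4 high RFI pigs had the 4 highest values of O12638 and of each of the 4 PON3 probes, and for O12638 these 4 started at 6.22 while the next pig reached 5.42. The second PON1 probe, A_72_P035606, which the array describes by the PON1 reference transcript, ran the other way. Its levels were -2.01 to 1.90 in low RFI pigs (median -0.42) and -1.05 to 2.92 in high RFI pigs (median 1.83), a difference of -1.76 (SE 0.48) that was not called (limma adjusted p = 0.252). Of the 4 high RFI pigs highest for O12638, 3 were among the 4 lowest for A_72_P035606. The direction for PON1 therefore depended on the probe, and the mean over both probes differed by -0.16 (limma adjusted p = 0.996). The 4 PON2 probes had differences of -0.58 to -0.40, none of them called. In the gene order of assembly Sscrofa11.1, PON1, PON3 and PON2 are neighbours on chromosome 9. PDK4, a pyruvate dehydrogenase kinase and the next tested gene beyond PON2, differed by 0.57 (limma, raw p = 0.0885).

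**Figure D3:**
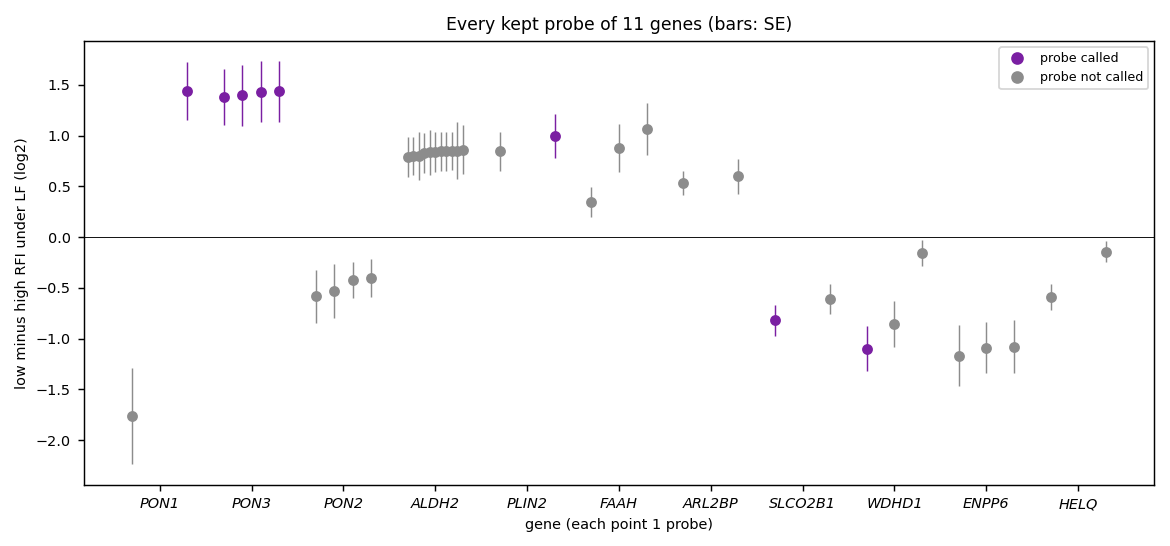
Low minus high RFI difference under the LF diet (log2, y axis) of every kept probe of 11 genes, with SE bars and DEP in purple. The 2 PON1 probes lie at 1.44 and -1.76, the 4 PON3 probes between 1.38 and 1.44, and the 11 ALDH2 probes between 0.79 and 0.86.

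PLIN2, a protein that coats lipid droplets, had levels of 2.41 to 4.68 in low RFI pigs (median 3.31) and 1.80 to 3.19 in high RFI pigs (median 2.33). Of 12 low RFI pigs, 8 lay above the highest high RFI pig. The difference was 0.995 (SE 0.21), 1.99-fold (limma adjusted p = 0.0642 over genes), and the second PLIN2 probe differed by 0.84 (SE 0.19). Without the 3 arrays that stood apart the difference was 0.999, and it was no longer called (limma adjusted p = 0.188). Of the 19 tested genes of lipolysis and lipid droplets, PLIN2 was the one called, where 0.045% of all genes were called higher. The median of the list was 0.16 against 0.01 for all genes, and 15 of the 19 (78.9%) had a positive difference, against 54.7% of all genes. ABHD5, the activator of adipose triglyceride lipase, differed by 0.67 (SE 0.22) and MGLL, which cleaves monoglycerides, by 0.40, neither of them called. The lipase genes PNPLA2 and LIPE differed by 0.16 and 0.18 without a call.

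HCAR1, the lactate receptor that restrains lipolysis in adipocytes, had levels of -0.19 to 2.04 in low RFI pigs (median 0.94) and -0.89 to 1.34 in high RFI pigs (median 0.05). The difference of 0.93 (SE 0.22) was not called (limma adjusted p = 0.11). FAAH, which breaks down fatty acid amides such as anandamide, had levels of 0.36 to 1.96 (median 1.62) against -0.41 to 1.597 (median 0.37). Its difference was 1.06 (SE 0.26) and was not called (limma adjusted p = 0.11). The other FAAH probes differed by 0.88 and 0.34, and 2 of the 3 probes shared a run of 38 bases. PTPLA, a dehydratase of very long chain fatty acid elongation, differed by 0.60 (SE 0.14) with all 12 low RFI pigs above the high RFI mean, also without a call.

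ALDH2, the mitochondrial aldehyde dehydrogenase, was read by 11 kept probes with differences between 0.79 and 0.86. Its brightest probe had levels of 4.86 to 6.53 in low RFI pigs (median 6.19) and 3.89 to 5.95 in high RFI pigs (median 5.18), and 8 low RFI pigs exceeded the highest high RFI pig. The difference of 0.84 (SE 0.20) fell short of the cut-off (limma adjusted p = 0.11). Several of these probes read the same transcript, so that their number adds no replicates. Of 40 tested antioxidant and detoxification genes, 2 were called higher, PON3 and, by its brighter probe, PON1, where 0.045% of all genes were. Both were known as line genes from earlier results of these data when the lists were chosen, so that these 2 calls are no result about the list. The median of the list was 0.10, 28 members (70.0%) had a positive difference against 54.7% of all genes, and 12 positive and 2 negative ones had a raw p under 0.05, against 432 and 281 of all genes. Among the members not called were thioredoxin reductase TXNRD1 at 0.32, epoxide hydrolase EPHX1 at 0.49, superoxide dismutases SOD1 at 0.21 and SOD2 at 0.26, and glutathione peroxidase GPX1 at 0.30. PON2 at -0.42 and the glutathione transferase GSTA4 at -0.15 were the 2 negative ones with a raw p under 0.05.

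WDHD1, a DNA replication factor, had levels of -1.28 to 1.02 in low RFI pigs (median 0.04) and 0.60 to 1.29 in high RFI pigs (median 1.02). Of 12 low RFI pigs, 10 lay below the lowest high RFI pig, and the other 2 were within the high RFI range. The difference was -1.10 (SE 0.22), a 2.14-fold lower level in low RFI pigs (limma adjusted p = 0.0394 over genes), and it was -1.24 without the 3 arrays that stood apart (limma adjusted p = 0.0366). The 3 WDHD1 probes did not give the same size, with -1.10, -0.86 and -0.15. No gene of the mitotic cell cycle list was called among 21 tested, and its median was -0.05, which was -0.12 without the 3 arrays and -0.23 under the HF diet. HELQ, a DNA repair helicase, had levels of -0.25 to 0.87 (median 0.27) in low RFI pigs and 0.31 to 1.32 (median 0.99) in high RFI pigs. Its difference was -0.59 (SE 0.13, limma adjusted p = 0.0642 over genes), and its second probe differed by -0.15.

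SLCO2B1, an uptake transporter for organic anions, was a DEP through probe O10918. Levels were 1.02 to 2.51 in low RFI pigs (median 1.94) and 1.65 to 3.29 in high RFI pigs (median 2.83), and all 12 low RFI pigs lay below the high RFI mean. The difference was -0.82 (SE 0.15, limma adjusted p = 0.0317 over probes). It was -0.74 and no longer called without the 3 arrays that stood apart (limma adjusted p = 0.122), nor was it called when the 24 LF arrays alone were fitted (limma adjusted p = 0.164). The brighter SLCO2B1 probe, which stood for the gene, differed by -0.61 (SE 0.15) and was not called. ENPP6, a choline-specific phosphodiesterase, had levels of -1.64 to 0.42 (median -1.27) in low RFI pigs and -0.72 to 1.02 (median 0.19) in high RFI pigs. Its 3 probes differed by -1.17 to -1.08, none of them called (limma adjusted p = 0.103 for the gene), but 2 of these probes shared a run of 57 bases, and the third was well above background on 8 of the 12 low RFI arrays.

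ARL2BP, which binds the small GTPase ARL2, had levels of 3.97 to 4.74 in low RFI pigs (median 4.39) and 3.32 to 4.23 in high RFI pigs (median 3.79). The difference was 0.53 (SE 0.12, limma adjusted p = 0.0642 over genes), and its second probe differed by 0.60. HEATR4 differed by 0.53 (SE 0.12), with 11 of 12 low RFI pigs above the high RFI mean (limma adjusted p = 0.0661 over genes). ARL2BP, HEATR4 and HELQ were DEG, while the same probes had adjusted p of 0.0814, 0.0852 and 0.0802 among all 44356 probes in limma and were not DEP. When the 24 LF arrays alone were fitted, HEATR4 and HELQ were not DEG (limma adjusted p = 0.21 and 0.195 over genes). Without the 3 arrays that stood apart, ARL2BP (limma adjusted p = 0.313), HEATR4 (limma adjusted p = 0.284) and HELQ (limma adjusted p = 0.311) were no longer called, while PON3, PON1 and WDHD1 still were at the gene level. Among all probes, the brightest PON3 and PON1 probes were then no longer called (limma adjusted p = 0.103 for both A_72_P385478 and O12638). Their differences were then 1.49 (SE 0.30) and 1.56 (SE 0.31), against 1.38 and 1.44 with all arrays.

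The remaining genes chosen by their raw p were given as values, since none was called. With a positive difference the genes were TRIM25, a ubiquitin ligase of antiviral signalling, at 0.61 (SE 0.14), the major vault protein MVP at 0.35 (SE 0.09) and the nuclear receptor coregulator PELP1 at 0.18 (SE 0.05). All 12 low RFI pigs lay above the high RFI mean for MVP and PELP1. With a negative difference, the tyrosine kinase MATK was at -0.77 (SE 0.18) and the Na,K-ATPase regulator FXYD6 at -0.60 (SE 0.15). The MATK probe was dim, with a mean level of -3.58 in low RFI pigs. Over the alternative settings its difference ran from -0.97 to -0.27. FXYD6 was below the lowest high RFI pig in 9 of 12 low RFI pigs. GALNTL4, a glycosyltransferase, NME4, a mitochondrial nucleoside diphosphate kinase, and FAM103A1, a cofactor of cap methylation, were at -0.52, -0.53 and -0.57. STAM2, an endosomal sorting protein, DST, a cytoskeletal linker, and LDB2, a LIM domain binding protein, were at -0.29, -0.34 and -0.34. For DST the other 7 probes lay between -0.05 and 0.06. With slide as a block 13 genes were called, and of the named genes not called without it these held TRIM25, ALDH2, HCAR1, MATK and SLCO2B1 (limma adjusted p = 0.0256 to 0.0685).

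The 7 DEP without a symbol included the 2 probes with the smallest p in limma. Probe A_72_P040016, listed as the porcine sequence tag CK462040, had levels of 0.76 to 1.92 in low RFI pigs (median 1.28) and 1.13 to 3.13 in high RFI pigs (median 2.57). All 12 low RFI pigs lay below the high RFI mean, and the difference was -1.11 (SE 0.19, limma adjusted p = 0.0162). OTTSUST00000000508 had levels of -3.45 to -0.44 (median -1.89) against -1.85 to 1.27 (median 0.05), and 6 low RFI pigs lay below the lowest high RFI pig. Its difference of -1.78 (SE 0.32, limma adjusted p = 0.0259) was the largest in size among the 15 DEP, and it was -1.72 and no longer called without the 3 arrays that stood apart (limma adjusted p = 0.103). With normexp background correction OTTSUST00000000508 was at -1.26, smaller in size than O12638 at 1.42, and it was still called (limma adjusted p = 0.0477). Probe A_72_P143336, with levels of -3.93 to -0.99 (median -2.89) against -2.69 to -0.69 (median -1.31), differed by -1.31 (SE 0.26), and the array describes it by its likeness to a dog retinoic acid-induced protein. With normexp it was -0.70 and no longer called (limma adjusted p = 0.117).

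Probe A_72_P304024 had levels of -0.38 to 1.29 in low RFI pigs (median 0.76) and -1.04 to 1.01 in high RFI pigs (median -0.76), a difference of 1.08 (SE 0.22). Probe A_72_P087716 had levels of -3.76 to -1.24 (median -1.83) against -4.03 to -1.81 (median -3.25), a difference of 1.21 (SE 0.26). For this dim probe the difference was 0.60 with normexp background correction and no longer called (limma adjusted p = 0.115), and it was 1.59 and 0.82 within the scan dates. For these probes 12 and 11 of the 12 low RFI pigs lay above the high RFI mean. Probe A_72_P395863, described by its likeness to bovine GDAP2, differed by -0.47 (SE 0.10), and probe A_72_P236542, with no description, by -0.69 (SE 0.15). The latter was -0.38 with normexp and no longer called (limma adjusted p = 0.105). For these 2 probes 8 and 9 low RFI pigs lay below the lowest high RFI pig.

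The line contrast was then set beside that of the other 24 pigs, fed the HF diet. No array was shared between the contrasts, but the slides were. All 15 DEP had the same sign under the HF diet, all 15 with a raw p under 0.05, and none of them was called there. Of all probes, 64% had the same sign under both diets, and 5.02% had a raw p under 0.05 under HF. The 15 DEP were not 15 separate results, since 5 were paraoxonase probes. Of the 7 DEG, 6 had a raw p under 0.05 under HF, against 4.69% of all genes. Under that diet 5 probes were DEP (0.0113%), 4 of them up (0.00902%) and 1 down (0.00225%) in the low RFI line, while 1 gene was a DEG (0.009%), which was higher (0.009%). For 14 of the 15 DEP of the LF diet the difference was smaller under the HF diet. PON3 differed by 0.98 under HF against 1.38 under LF, PLIN2 by 0.58 against 0.995, and WDHD1 by -0.81 against -1.10. The exception was A_72_P087716, at 1.23 under HF and 1.21 under LF. The probes were chosen by their size under LF, so that the smaller values under HF are a description only. Of the 204 genes with a raw p under 0.01 under LF, 196 had the same sign under HF (96.1%), against 65.4% of all 11116 genes. The difference between the diets was itself tested. No probe was called for it (smallest limma adjusted p = 1, with 462 probes, 1.04%, at a raw p under 0.05), and none of the 15 DEP had a raw p under 0.05. The line difference of HCAR1 was 0.93 under LF and 0.15 under HF (limma, raw p = 0.0184 for the difference between diets), that of MATK -0.77 and -0.18 (limma, raw p = 0.029), and that of HELQ -0.59 and -0.21 (limma, raw p = 0.0441), none of them past adjustment. These genes were named for their small p under LF, so that their smaller values under HF are a description only. Of all genes, 0.891% had a raw p under 0.05 in limma for the difference between diets.

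**Figure D4:**
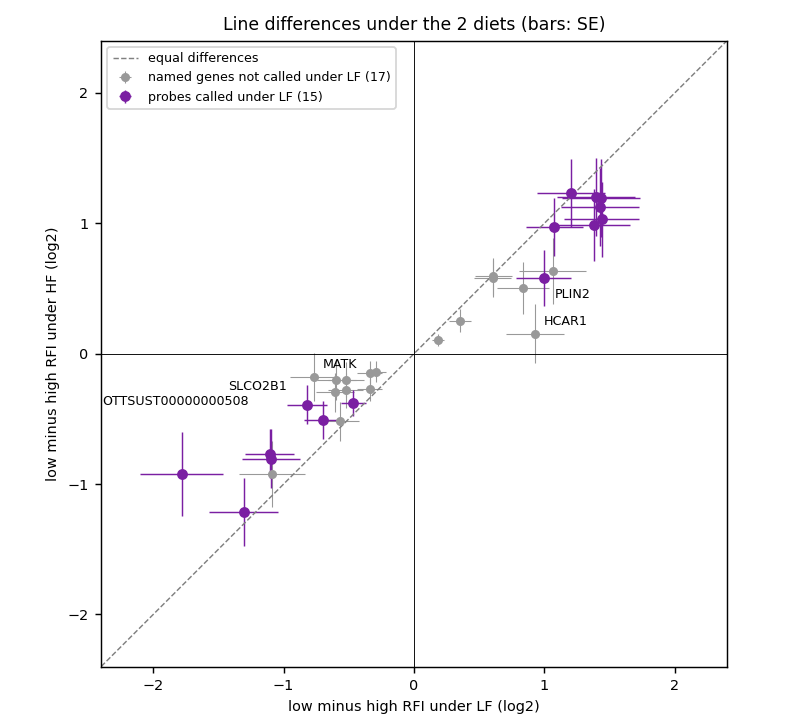
Low minus high RFI difference (log2, with SE bars) under the LF diet (x axis) and under the HF diet (y axis) for the 15 DEP of the LF diet in purple and for 17 named genes not called there in grey. All points lie in the quadrants of equal sign, and 14 of the 15 DEP lie on the side of the dashed line of equal differences where the LF value is the larger in size.

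Genes that earlier results of these same data had named for a line difference over both diets were read under LF alone. The LF arrays took part in that choice, so that the values are a description only. The set also held PON1, PON3 and WDHD1, which were DEG, and ENPP6, which was not called, all given above. The neuropeptide NMB had levels of 1.02 to 4.50 in low RFI pigs (median 2.08) and 0.31 to 2.16 in high RFI pigs (median 1.14), a difference of 1.16 (SE 0.37). TRAF6, an adaptor of innate receptors, differed by 0.72 (SE 0.28) with all 12 low RFI pigs above the high RFI mean, while its second probe differed by 0.12 (SE 0.13). OAZ3, an ornithine decarboxylase antizyme, differed by -1.11 (SE 0.36), NRSN1 by -1.08 (SE 0.32) and PGLYRP4, a bacterial wall recognition protein, by -0.82 (SE 0.26). Over the alternative settings OAZ3 ran from -1.59 to -0.63, NRSN1 from -1.49 to -0.08 and PGLYRP4 from -0.99 to -0.34. The probe of UNC45B, a myosin chaperone of muscle, was well above background on 9 low RFI and 5 high RFI arrays and passed the filter only through the low RFI line, so that no difference is given for it. NMB, TRAF6, OAZ3, NRSN1 and PGLYRP4 were not called under LF in limma, with adjusted p of 0.387 to 0.566.

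Pathway lists were read next, each by its calls and its median. Among 18 tested genes of de novo lipogenesis none was called, and the median was 0.01. Fatty acid synthase FASN was at 0.05, SCD, which desaturates stearate, at 0.04, and acetyl-CoA carboxylase ACACA at -0.20. The smallest raw p of that list were those of the elongase ELOVL6 at -0.48 (SE 0.24) and the desaturase FADS2 at -0.57 (SE 0.32). Among 15 genes of triglyceride synthesis none was called, and the median was 0.03. PCK1, the enzyme of glyceroneogenesis, had levels of 2.71 to 7.46 in low RFI pigs (median 5.74) and 2.06 to 6.54 in high RFI pigs (median 3.97), a difference of 1.37 with an SE of 0.51. GPD1, which makes glycerol 3-phosphate, was at 0.17.

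Of 28 fatty acid oxidation genes none was called, 20 had a positive difference and the median was 0.10. ACAA1, a thiolase of the peroxisomal pathway, was at 0.30 (SE 0.09), and the carnitine palmitoyltransferase CPT1A was at 0.32. None of the 67 oxidative phosphorylation genes was called, and they spanned -0.16 to 0.07 with a median of -0.01. None was called in branched-chain amino acid catabolism (17 tested, BCKDHA at 0.24 and DLD at -0.18), in glycolysis and pyruvate (23 tested, LDHB at 0.20 and PDK1 at 0.22) or in the insulin and IGF axis (29 tested, STAT5A at 0.25). The medians of these lists were 0.007, -0.0035 and 0.016. Of the 23 glycolysis and pyruvate genes, 12 were below 0. Of 36 proteasome genes none was called, 32 had a positive difference, and the median was 0.07 (0.04 without the 3 arrays that stood apart), with PSMC3 at 0.14 and PSMB6 at 0.19.

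The list of interferon response and antigen presentation had the lowest median of the 12 pathway lists, -0.13, with 39 of its 49 genes below 0 and none called. The lowest 2 raw p were those of the class I gene SLA-8 at -0.36 (SE 0.13) and the class II gene SLA-DOA at -0.76 (SE 0.28). SLA-8 levels were 2.37 to 4.36 in low RFI pigs (median 3.41) and 3.37 to 4.28 in high RFI pigs (median 3.72). SLA genes resemble each other, and the signal of one on the probe of another cannot be told apart here. Under the HF diet the median of this list was 0.01. Without the 3 arrays that stood apart it was -0.10 under LF. The mitotic list had CCNB1 at -0.20 and NUSAP1 at -0.11.

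**Figure D5:**
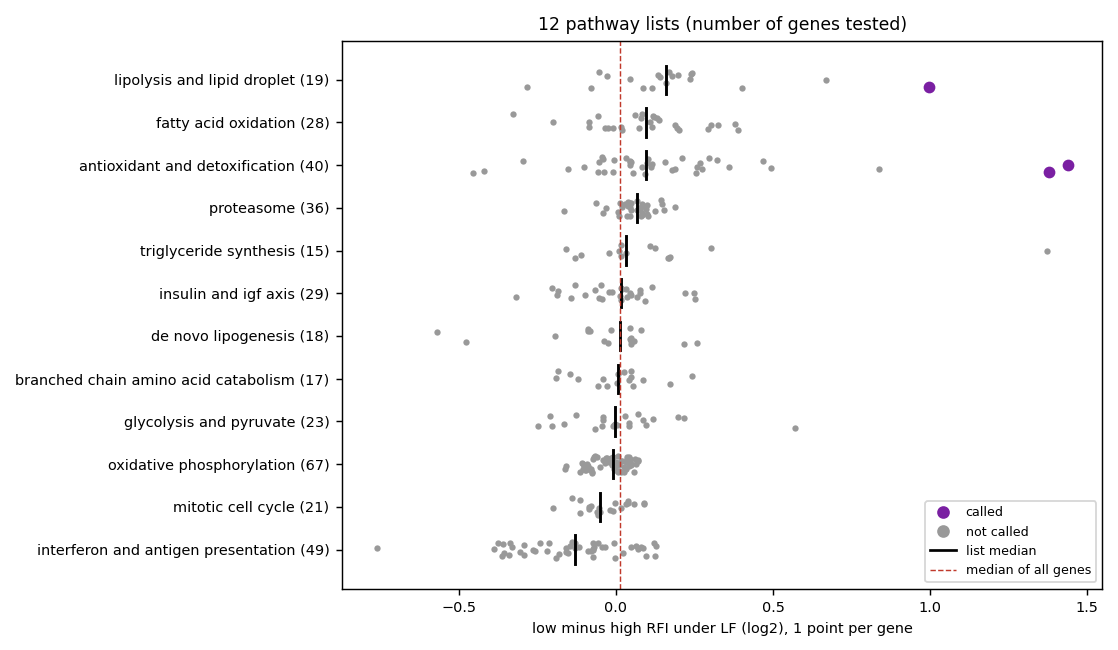
Low minus high RFI difference under the LF diet (log2, x axis) of every tested gene in 12 pathway lists, with DEG in purple, list medians as black bars and the median of all genes as a dashed line. List medians run from -0.13 for interferon and antigen presentation to 0.16 for lipolysis and lipid droplet, and the 3 DEG among list members are PON1, PON3 and PLIN2.

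The arrays carried the marks of adipose tissue. ADIPOQ stood at 9.15 ± 0.22 (SD, n = 12) in low RFI pigs and 9.03 ± 0.30 in the high RFI line, and FABP4 at 9.86 ± 0.17 and 9.74 ± 0.13. The basal keratin KRT5 was at -4.10 ± 0.81 and -3.97 ± 0.63 and exceeded background clearly on 15 of the 24 arrays. The fast myosin MYH2 was at -3.56 ± 1.25 and -3.87 ± 1.26, on 16 of 24. None of the genes in the 8 marker lists was a DEG. The adipocyte list had a median difference of 0.11 over 18 genes, with mean levels per array of 5.98 to 6.60 in low RFI pigs and 6.13 to 6.69 in the high RFI line. Its members with the smallest raw p were CFD, the adipocyte serine protease adipsin, at -0.31 (SE 0.12) and GPD1 at 0.17. Of 26 fibroblast and extracellular matrix genes, 21 were below 0, with a median of -0.07 and elastin ELN at -0.73 (SE 0.27) and lumican LUM at -0.38 (SE 0.22). Of 22 macrophage and complement genes, 17 were below 0, with a median of -0.05 that became 0.01 without the 3 arrays, and with VSIG4 at -0.33 and MRC1 at -0.26. The lymphocyte list had a median of 0.09 over 17 genes, 0.17 without the 3 arrays (LCK at 0.09, GZMB at 0.21) and the endothelial list -0.0015 over 14 (PROX1 at -0.57, TIE1 at -0.14). The blood cell list stood at 0.12 over 10 genes (AHSP at 0.39, S100A9 at 0.30), the skeletal muscle list at 0.09 over 22, 15 of them positive (MYH7 at -0.34, with UNC45B tested only through the low RFI line) and the keratinocyte list at 0.11 over 7 (PERP at 0.57, SFN at 0.56, which were 0.0964 and 0.20 without low RFI replicate 4). The part of these cell types in the DEP was not tested.

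Genes lying next to each other were compared for 10048 genes with a place in assembly Sscrofa11.1. Of 182 of them with a raw p under 0.01, 16 (8.79%) had a next tested gene that was also under 0.01, while 3.58% of all placed genes had such a neighbour. These formed 8 pairs, of which 4 ran in the same direction, namely PON1 with PON3, FXYD2 with FXYD6, FCN2 with FCN1 and CTSC with FOLH1B. The pair of PON1 and PON3 ran in the same direction only by the brighter PON1 probe, and the count was 3 of 8 by the other one. FXYD2 differed by -0.52 beside FXYD6 at -0.60, and the ficolins FCN2 and FCN1 by -1.31 and -0.59. Opposite directions were seen for OAZ3 at -1.11 beside MRPL9 at 0.25 and for NRSN1 at -1.08 beside DCDC2 at 0.64. Neighbouring genes of one family can have similar transcripts, and whether the transcript of one bound the probe of the other was not tested.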

How the data were processed

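The authors labelled SCAT RNA of 48 pigs with Cy3 for hybridization on custom arrays of pig probes, and the deposited scanner files hold spot intensity on a linear scale from Agilent Feature Extraction 10.7.3.1. The authors also deposited log2 values of 38987 probes, centred on each array's median with no background subtraction, used here as an alternative. Per the labels, their software was R 2.10.0.

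Control spots and 227 outlier spots were left out. Log2 processed signals of probes well above background on at least 9 of 12 arrays of a group were centred on the array median. The 4 groups, taken from the titles, were fitted on all 48 arrays with limma 3.58.1 in R 4.3.3 (lmFit, eBayes with trend), two-sided, and checked on simulated data. The methods of the study name analysis of variance with line, diet and their interaction. A gene was read by its brightest kept probe. Probes were named by accession, gene number or gene name through assembly Sscrofa11.1 (27372 of 60305 probes, 12911 symbols), and old array symbols were kept where the assembly has none.

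The members, the 12 pathway lists, the 8 marker lists and the naming rule were chosen with earlier results of these data known. Named were, per direction, the DEG and then the genes of smallest raw p up to 12. Also named were genes given for line over both diets by earlier results of these data, and each list's 2 members of smallest raw p. Any other gene or probe was picked once its value was known. For 2 lists, 1 member that the rule named is not reported here. The number of arrays limits the precision, since arrays give no read depth. In all 23 alternative settings were tried, 4 of them chosen after seeing the data. One pig gave 1 array, so that p-values measure the spread between pigs within a group, pooled over the 4 groups. They do not measure a spread between selection lines, as low and high RFI were each represented by 1 line.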

Additional observations from a re-analysis of the deposited data

How the results depend on the processing

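Under LF, 15 probes and 7 genes were called. With quantile normalization 6 probes were called, without a filter on dim probes 3, with probes well above background on all 24 LF arrays 23, with slide as a block 39, with scan date as a block 41, with array position as a block 0, with the array median as a covariate 3, with array weights 328, with the methods' analysis of variance 3, on the first scan date alone 20, on the second 1, and with the 24 LF arrays alone 6. For genes the count was 3 with normexp, 3 with the median signal, 2 with the deposited table, 13 with slide and 16 with scan date as a block, 0 with array position, 105 with array weights, 0 with the methods' analysis of variance (smallest adjusted p = 0.0809), 5 on the first scan date alone, 0 on the second and 3 with the mean of a gene's probes. Under HF, where 5 probes were called, the count was 2 with the median signal, 3 with the deposited table, 21 and 13 with slide and scan date as a block, 0 with array position, 10 with the array median, 46 with array weights, 3 without background outlier spots, 9 and 0 on the first and second scan date and 15 with the 24 HF arrays alone. The difference between diets had 0 calls in all settings run. In settings chosen after seeing the data, leaving out low RFI replicate 4, low RFI replicate 9 or high RFI replicate 11 gave 5 to 8 probes and 3 to 6 genes under LF, and leaving out all 3 gave 2 probes and 3 genes. The cause of these shifts was not tested.

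With the replicate number as a block, 69 probes and 21 genes were called under LF and 63 probes under HF. Arrays of the 2 lines with the same number had deviations that correlated by -0.01 to 0.45 (8 of 12 pairs over 0.1), and 3 low RFI and 3 high RFI arrays correlated best with their own number. Since not every pair correlated by over 0.1, the numbers were not taken as pairs. The numbers follow the slides, with replicates 1 and 2 of each group on slide 1 and so on, and the slide block is given above.

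Over the 65 named genes, 1361 of 1489 values kept their direction and side of the cut-off, 65 were no longer called, 54 became called and 9 changed sign. For the 7 DEG alone, 95 of 161 values kept both, 65 were no longer called and 1 changed sign. For the 58 named genes that were not called, 1266 of 1328 values kept both. PON1 was at -0.16 with the mean of its probes and SLA-8 at 0.0554. On the second scan date alone DLD was at 0.0289, CCNB1 at 0.0382, NUSAP1 at 0.0649, VSIG4 at 0.0442, MRC1 at 0.0570 and PERP at -0.25, and with array position as a block NUSAP1 was at 0.0033. Within the scan dates PON3 differed by 1.40 and 1.36, PLIN2 by 0.79 and 1.20 and WDHD1 by -1.06 and -1.14. In the deposited table WDHD1 was read by another probe, at -0.12. Of the 15 DEP, A_72_P040016 was called in 20 of 22 settings and PLIN2 in 7. Array position was unbalanced between the lines, and with it as a block the SE of all 15 DEP was larger.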
